A study of Mus musculus with 16 samples.

Results

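The experiment crossed 2 treatments in B16R2L, a mouse melanoma cell line grown as tumours in mice, and the question addressed here is whether the RNA of tumours that received both treatments differed from the sum of what each did alone. The first treatment was a short hairpin RNA against Mdk, which encodes midkine, a secreted growth factor, carried by the tumour cells (shMDK). Its control was a non-targeting hairpin (shCtrl). The second was an antibody against the checkpoint receptor PD1 (clone RMP1-14, 10 mg/kg per the labels, given 2 times a week for 2 weeks once tumours reached 100 mm3), with an IgG2a antibody as its control. All 16 of 16 tumours of the series were used, 4 in each of shCtrl+IgG2A, shCtrl+PD1, shMDK+IgG2A and shMDK+PD1. A single Mdk hairpin was used, so that loss of Mdk cannot be told apart from other differences between the lines. Host strain, sex and age, and whether the lines were pools or single clones, are not given in the sources used here. RNA was read at transcript 3′ ends, and values are normalised counts, in which a sample's reads were divided by its size factor.

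Midkine binds heparan sulphate and several cell-surface receptors and is made by many tumours. PD1 sits on activated T cells, and antibodies that block it release those cells from inhibition by its ligands. T cells and natural killer cells release interferon gamma, which acts on genes of antigen presentation and on chemokines, while interleukin 4 and related signals drive macrophages toward a state marked by Arg1, Chil3 and Mrc1 that is called alternative activation.

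For each gene the quantity described is the interaction: the anti-PD1 difference in shMDK tumours minus the anti-PD1 difference in shCtrl tumours, on log2(normalised count + 1). An interaction of 0 means that the 2 single effects add on the log2 scale, which is the same as multiplying as folds. A value of 1 means that the tumours with both treatments lay 2-fold above that sum. Every interval below is a 95% confidence interval from the limma fit and is not adjusted for the number of genes. In bulk tumour RNA, fewer cells of a type and less RNA per cell cannot be told apart.

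Recovered reads ran from 5686405 to 8886334 per tumour. Mdk itself read 601, 727, 959 and 1161 in shCtrl+IgG2A, 925, 606, 1104 and 856 in shCtrl+PD1, 150.2, 203, 323 and 121 in shMDK+IgG2A and 312, 289.9, 147 and 96.5 in shMDK+PD1. No shMDK tumour overlapped the shCtrl tumours, and Mdk fell to 0.223 of its control level under IgG2A (log2 change -2.16 ± 0.36, SE, adjusted p = 0.00428) with an interaction of -0.0047 ± 0.50. The melanocyte genes that the tissue label calls for were abundant, Dct at 104854 ± 21689 and Tyr at 1555 ± 714 (mean ± SD, n = 4) in shCtrl+IgG2A. Some libraries stood apart in 2 ways. In 5 libraries (shCtrl+IgG2A tumours 1 and 2, shMDK+IgG2A tumours 3 and 4, shMDK+PD1 tumour 1) levels were higher for genes whose 3′ ends are rich in GC, and in 2 others (shCtrl+PD1 tumour 2, shMDK+IgG2A tumour 1) the transcript Gm42418 took 4.47% and 3.17% of reads against 0.88% to 1.56% elsewhere. These are called the GC-rich and the Gm42418-rich libraries below, and values without them are given beside many of the results.

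No gene departed from additivity after adjustment. Of 14672 genes tested, the interaction of 0 genes (0%) passed a Benjamini-Hochberg adjusted p of 0.05 in limma, edgeR or DESeq2, and the smallest adjusted p in limma was 0.9998. At an unadjusted p under 0.05 limma called 506 genes (3.45%), edgeR 654 (4.46%) and DESeq2 714 (4.88%), beside the 5% that such a threshold passes on average when nothing differs. Without the 5 GC-rich libraries limma called 1383 genes (9.42%) at that threshold, and again 0 after adjustment (smallest adjusted p = 0.3967). The single effects were unequal in size. Anti-PD1 in shCtrl tumours passed for 0 genes (0%), and anti-PD1 in shMDK tumours for 5 (0.0341%), of which 4 (0.0273%) rose and 1 (0.00682%) fell. The hairpin passed for 255 genes (1.74%) under IgG2A, where 239 (1.63%) rose and 16 (0.109%) fell, and for 870 (5.93%) under anti-PD1, where 724 (4.93%) rose and 146 (0.995%) fell. Both treatments together, against shCtrl+IgG2A, passed for 1447 (9.86%), of which 938 (6.39%) rose and 509 (3.47%) fell. These comparisons share tumours, so their counts are not independent, and that one passed more genes than another is no test of additivity.

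Because a p that misses its threshold does not show that effects add, each gene was sorted by its interval. The interval lay wholly above 0 in 345 genes (2.35%) and wholly below 0 in 161 (1.1%). In 6885 genes (46.9%) it held 0 and stayed within 2-fold in both directions, the one class read here as close to additive. The other 7281 (49.6%) were unresolved. Without the 5 GC-rich libraries the interval lay above 0 in 831 of 14689 genes and below 0 in 552. Counts from that fit are therefore not comparable with the shares given here. The median standard error of an interaction was 0.38, so that the interval of a typical gene reached 0.79 to either side. The interaction itself was above 0 in 7428 genes (50.6%) and below 0 in 7244. Genes grouped in a list below were read in the same 16 tumours, so a sign they share is not many independent observations. The plot of programmes shows 29 gene lists in order of their median interaction. Lists of alternatively activated myeloid cells and of fibroblasts and matrix stood at the top, and those of interferon gamma response, antigen presentation, pigmentation and cell growth lay near 0. Genes were tested if their mean over all 16 tumours was at least 5, and 208 of the 14672 had a mean under 5 over the 12 tumours without both treatments. Such a gene was tested because it was high with both treatments, so list members of this kind are named here or below and support nothing. Those not named below were Gbp6 (interferon gamma), Ifit1bl1 (type I interferon), Tnf (NF-kB) and Egr2 and Egr3 (immediate early). The others were Wnt5a (dedifferentiated melanoma), Cd86 (dendritic cell) and Tnni2 (skeletal muscle). Without them the medians of these 7 lists were, in that order, 0.065, 0.26, 0.48, 0.61, 0.43, 0.42 and -0.12.

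**Figure D1:**
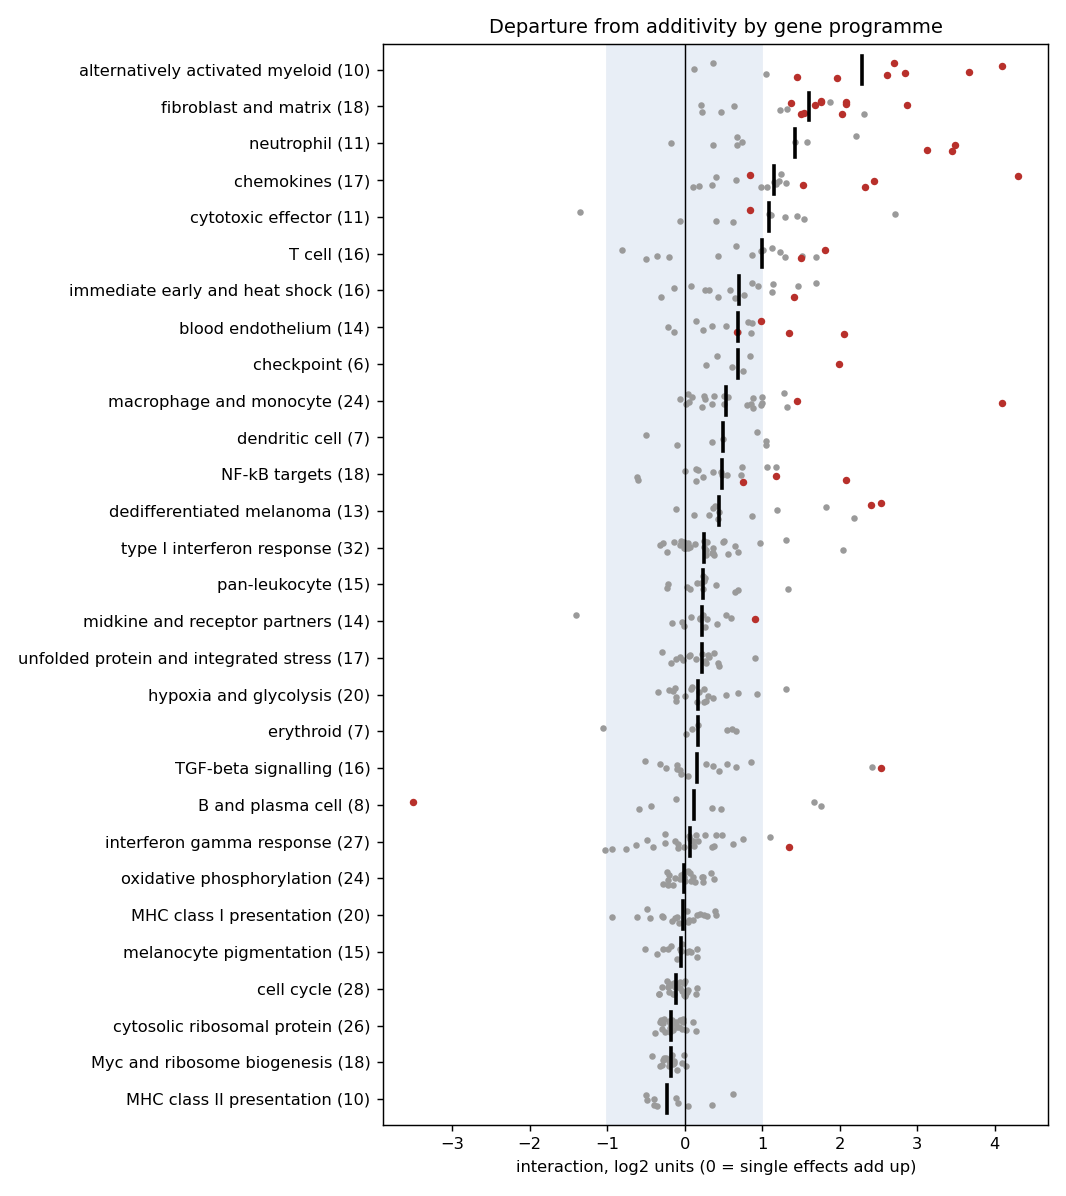
Interaction of single genes (points) within each gene list, on the log2 axis, with the number of tested members in brackets and the list median as a black bar. Red points have an unadjusted 95% interval that excludes 0 and grey points do not, and the shaded band marks 2-fold in either direction. The alternatively activated myeloid list has a median of 2.29, and the interferon gamma list a median of 0.071.

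Genes of alternatively activated myeloid cells were the furthest above the sum of the single effects. All 10 tested members of the list had an interaction above 0, beside 50.6% of all genes. In 7 (Arg1, Cd163, Chil3, Clec10a, Fn1, Mgl2 and Mrc1) the interval lay above 0, beside 2.35% of all genes. The median was 2.29 over the list and 0.0046 over all genes tested. Cd163 was tested only through its level with both treatments (mean 2.81 over the 12 other tumours), and the 9 members apart from it had a median of 1.97 with 6 intervals above 0. Set apart, the median effect of anti-PD1 in shCtrl tumours was 0.057 and that of the hairpin under IgG2A 0.83, while both together gave 3.10. Under both treatments 8 of 10 rose, beside 6.39% of all genes, and 1 of 10 rose with the hairpin under IgG2A, beside 1.63%.

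Chil3, which encodes a chitinase-like protein secreted by such macrophages (chr3:106147554-106167564 on the minus strand of GRCm38), read 13.5, 7.46, 0.951 and 6.46 in shCtrl+IgG2A and 2.76, 3.00, 1.86 and 7.19 in shCtrl+PD1. In shMDK+IgG2A it read 2.23, 10.9, 24.6 and 11.6, and in shMDK+PD1 48.6, 206, 67.8 and 88. All 4 tumours with both treatments lay above all 12 others, which overlapped among themselves. The interaction was 3.66 ± 0.94 (interval 1.68 to 5.64), where the single effects sum to 0.11 and the observed change was 3.77 ± 0.66 (adjusted p = 0.00138).

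Arg1 encodes arginase 1, which breaks down arginine (chr10:24915221-24927484, minus strand). Its values were 90.1, 69.3, 13.3 and 56.3 in shCtrl+IgG2A, 23, 28.5, 15.8 and 142 in shCtrl+PD1, 172, 87.3, 88.2 and 222 in shMDK+IgG2A and 630.5, 891, 532 and 868 in shMDK+PD1. Again every tumour with both treatments was above every other tumour, and the 3 other groups overlapped. The combined change was 3.90 ± 0.60 (14.9-fold, adjusted p = 0.00043) against a sum of 1.06, an interaction of 2.84 ± 0.84 (interval 1.06 to 4.62).

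Cd163, the scavenger receptor for haemoglobin, had a different shape across the groups. It read 6.75, 8.53, 1.90 and 4.62 in shCtrl+IgG2A, 1.84, 0, 2.79 and 2.70 in shCtrl+PD1, 0, 2.73, 1.90 and 0 in shMDK+IgG2A and 18.5, 15.7, 3.39 and 20.3 in shMDK+PD1. Its mean was lower under each single treatment than under none, though neither difference passed, and 3 of 4 tumours with both treatments were above all others. The interaction was 4.09 ± 0.95, but all 16 tumours together held 97 reads of the gene, it reached the minimum in 14 of the 16 fits that left out 1 tumour, and the combined change did not pass (adjusted p = 0.318).

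The lectin Clec10a read 15.8, 29.8, 10.5 and 12 in shCtrl+IgG2A, 10.1, 7.51, 27.9 and 30.6 in shCtrl+PD1, 32.3, 26.4, 33.2 and 21 in shMDK+IgG2A and 290.5, 309, 79.7 and 144 in shMDK+PD1. All 4 of the last group were the highest of the 16, and the interaction was 2.61 ± 0.68 (combined change 3.44 ± 0.48, adjusted p = 0.000213). The related lectin Mgl2 went from 2.81 ± 1.52 and 3.19 ± 1.57 in the shCtrl groups and 9.09 ± 7.51 in shMDK+IgG2A to 79.9 ± 80.4 in shMDK+PD1 (mean ± SD, n = 4; interaction 2.71 ± 0.89). Mrc1, the mannose receptor, stood at 41.1 ± 6.81 and 63.5 ± 33.7 in the shCtrl groups, 78 ± 23.1 in shMDK+IgG2A and 302 ± 116 in shMDK+PD1 (interaction 1.45 ± 0.54, combined change 2.77 ± 0.38, adjusted p = 0.000208). Fibronectin, Fn1, is made by fibroblasts as well as macrophages, and its interaction of 1.97 ± 0.53 came with means of 284 ± 63.4, 187 ± 61.3, 274 ± 74.2 and 797 ± 526. The 3 other members had intervals that held 0, Il4ra at 1.04 ± 0.59, Vegfa at 0.37 ± 0.46 and Tgm2 at 0.12 ± 0.68. Leaving out each tumour in turn moved the list's median over a range of 1.59 to 2.58 and the number of members with an interval above 0 between 6 and 8. Without the 5 GC-rich libraries these were 1.79 and 6.

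**Figure D2:**
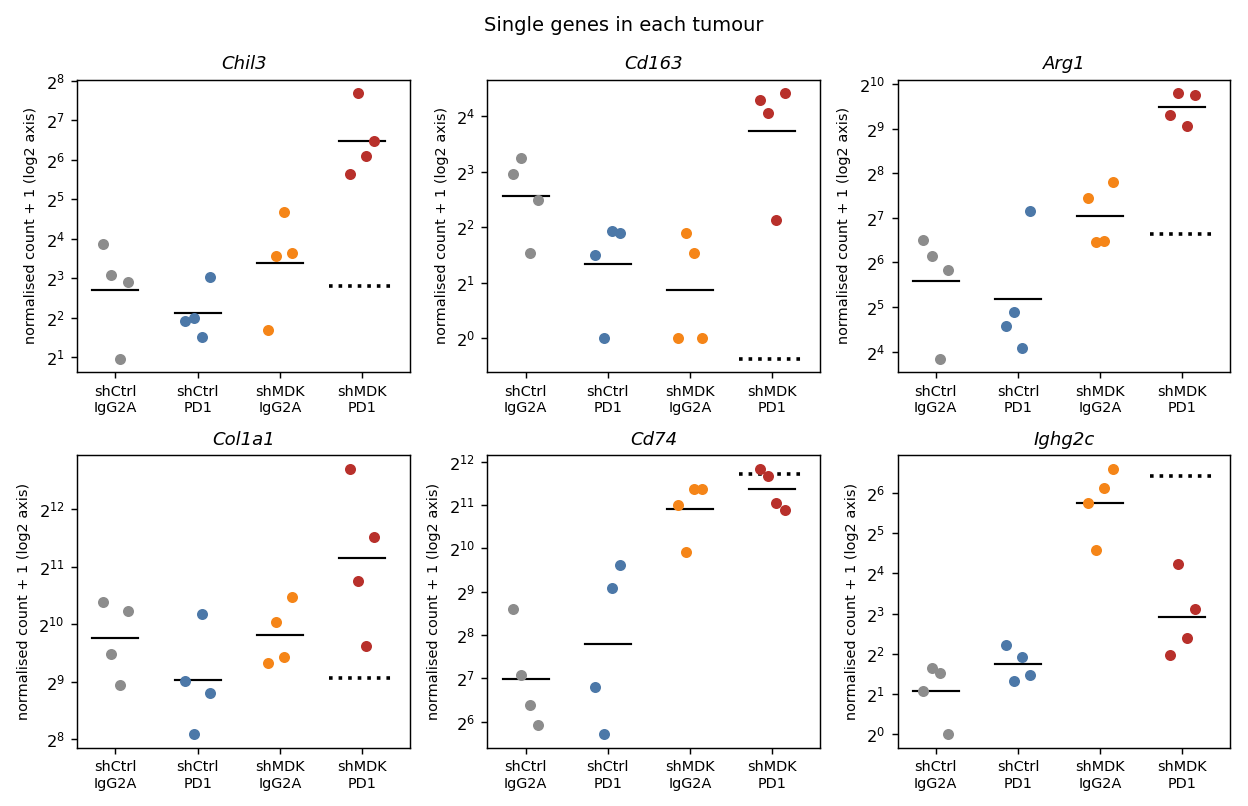
Normalised count + 1 of 6 genes in each tumour (points), on a log2 axis, by group, with the mean on that axis as a solid line and the level at which the single effects would sum as a dotted line over shMDK+PD1. Chil3 and Arg1 lie above the dotted line in all 4 tumours with both treatments, Cd74 lies on both sides of it, and Ighg2c lies below it in all 4.

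A general macrophage list behaved unlike the alternatively activated one in its single effects. The hairpin under IgG2A raised 12 of its 24 members and both treatments together 21, beside 1.63% and 6.39% of all genes. The medians were 2.18 and 2.97, and the median interaction was 0.53. Only Cd163 and Mrc1, which it shares with the list above, had an interval above 0, and of these Cd163 was tested only through its level with both treatments, as was Cd14. The 22 other members had a median of 0.51 with 1 interval above 0. Adgre1, the F4/80 antigen of macrophages, read 13.5, 10.7, 7.61 and 16.6 in shCtrl+IgG2A, 14.7, 0, 42.8 and 32.4 in shCtrl+PD1, 112, 30.0, 59.7 and 77.8 in shMDK+IgG2A and 168, 166, 91.5 and 87.2 in shMDK+PD1. The shMDK groups overlapped, as did the shCtrl groups, and the interaction of 0.99 ± 1.16 was smaller than its standard error. For the monocyte genes Ly6c2 and Ccr2 the interactions were 1.28 ± 0.78 and 1.0 ± 0.90, both with intervals that held 0. Without shCtrl+PD1 tumour 2 the macrophage median was 0.081, without both Gm42418-rich libraries 0.14 and without the 5 GC-rich ones 0.18. The leukocyte genes shared by most blood-derived cells had a median interaction of 0.24 over 15 members. None had an interval above or below 0, and 2 were within 2-fold, beside 46.9% of all genes. That median turned to -0.11 without the GC-rich libraries (7 of 15 above 0, 1 interval above 0) and to -0.012 without shMDK+IgG2A tumour 2. Ptprc, the CD45 antigen, rose with the hairpin under IgG2A (2.88 ± 0.51, adjusted p = 0.00614) and with both treatments (3.53 ± 0.51, adjusted p = 0.000288), with an interaction of -0.22 ± 0.73, or -1.32 without the 5 GC-rich libraries.

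Within shMDK tumours anti-PD1 passed for 5 genes, named here for that reason after their values were seen. Ctsl, the lysosomal protease cathepsin L, read 326, 431, 594 and 628 in shCtrl+IgG2A, 678, 471, 525 and 635 in shCtrl+PD1, 498, 517, 452 and 449.9 in shMDK+IgG2A and 1021, 1306, 1164 and 1585 in shMDK+PD1. The last 4 were the highest of the 16, and the interaction was 1.13 ± 0.27 (interval 0.55 to 1.71), with a rise of 1.39 ± 0.19 inside shMDK tumours (adjusted p = 0.0152). Slfn4, a schlafen family gene of myeloid cells, read 10.1, 4.26, 6.66 and 3.69 in shCtrl+IgG2A, 3.68, 7.51, 13 and 2.70 in shCtrl+PD1, 6.68, 18.2, 10.4 and 7.36 in shMDK+IgG2A and 63.1, 61.7, 61 and 75.3 in shMDK+PD1. Its 4 tumours with both treatments were again above all others and close to each other, with an interaction of 2.61 ± 0.62 and a rise of 2.60 ± 0.44 inside shMDK tumours (adjusted p = 0.0481). Mmp12, the macrophage elastase, and Sdc3, a syndecan, also rose (1.99 and 1.38), and Mbnl3 fell by 1.04, with interactions of 0.64, 0.42 and -0.71. This count was 0 without shMDK+IgG2A tumour 2, 3 or 4 or shMDK+PD1 tumour 2 or 4, 2 without shCtrl+IgG2A tumour 2, and 3 without shCtrl+IgG2A tumour 4, shMDK+IgG2A tumour 1 or shMDK+PD1 tumour 1. It was 12 without shMDK+PD1 tumour 3 and 36 without shCtrl+PD1 tumour 2.

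Neutrophil genes had a median interaction of 1.43 over 11 tested members, with an interval above 0 for the resistin-like gene Retnlg and for S100a8 and S100a9, the calprotectin subunits. Over all genes 2.35% had such an interval. S100a8 read 50.7, 42.6, 7.61 and 37.8 in shCtrl+IgG2A, 9.20, 138, 1.86 and 7.19 in shCtrl+PD1, 7.79, 18.2, 2.84 and 35.7 in shMDK+IgG2A and 235, 13.7, 107 and 43.2 in shMDK+PD1. The groups overlapped, and 1 shCtrl+PD1 tumour was higher than 3 of the tumours with both treatments. The interaction was 3.49 ± 1.48, with an interval that excluded 0 in 7 of the 16 fits that left out 1 tumour. Retnlg went from means of 2.05 ± 1.53, 1.96 ± 2.73 and 1.72 ± 1.22 to 16.6 ± 5.38 with both treatments, and there all 4 tumours were above the rest (interaction 3.12 ± 0.89). Retnlg was tested only through that group (mean 1.91 over the 12 other tumours), as was Il1r2, and the 9 other members had a median of 0.73, 2 of them with an interval above 0. Without shMDK+PD1 tumour 1 Retnlg fell below the minimum level and was not tested, none of the 10 genes tested had an interval above 0, and the median was 0.70. Without the 5 GC-rich libraries, of which that tumour is 1, none of 11 genes had one either (median 0.87).

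All 17 chemokine genes tested had an interaction above 0, beside 50.6% of all genes, with a median of 1.16. Both treatments together raised 14, beside 6.39% of all genes, and the hairpin under IgG2A 2, beside 1.63%. The interval lay above 0 for 5, beside 2.35%. Ccl8, a chemokine that draws leukocytes, read 171, 234, 63.7 and 69.2 in shCtrl+IgG2A, 58.9, 22.5, 257 and 263 in shCtrl+PD1, 433, 279, 471 and 615 in shMDK+IgG2A and 2759, 3307, 1132 and 1557 in shMDK+PD1. The 4 tumours with both treatments were the 4 highest, and all 4 shMDK+IgG2A tumours were above all shCtrl tumours. The single effects sum to 1.66 and the change with both was 4.10 ± 0.64 (adjusted p = 0.000493), an interaction of 2.44 ± 0.90.

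The other chemokines with an interval above 0 were Ccl12 (2.33 ± 0.98), Ccl9 (1.52 ± 0.72), Ccl5, which T cells release (0.84 ± 0.40, with an interval that excluded 0 in 7 of the 16 fits that left out 1 tumour), and the neutrophil attractant Cxcl5 (4.30 ± 1.45). Cxcl5 read 161, 8.81, 4.24 and 27.9 in shMDK+PD1 and at most 13.9 elsewhere, so that 2 tumours carried most of the higher mean. It was tested only through that group, and the 16 other chemokines had a median of 1.11 with 4 intervals above 0. Ccl2, the main ligand of Ccr2, rose with both treatments (3.40 ± 0.47, adjusted p = 0.00021) with an interaction of 1.06 ± 0.67 that did not exclude 0. By contrast Cxcl9, a target of interferon gamma that draws T cells, had an interaction of 0.41 ± 1.06 and an interval of -1.83 to 2.65. Leaving out 1 tumour gave 2 to 6 chemokines with an interval above 0: it was 2 without shCtrl+PD1 tumour 2 or shMDK+PD1 tumour 1, and 3 without shCtrl+IgG2A tumour 1 or 2, shCtrl+PD1 tumour 1, or shMDK+IgG2A tumour 1 or 2. It was also 2 without both Gm42418-rich libraries, and 3 without the GC-rich ones.

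Genes of fibroblasts and their collagen matrix showed no single effect that passed, and 5 of 18 rose with both, beside 6.39% of all genes. All 18 tested had an interaction above 0, beside 50.6% of all genes, with a median of 1.61. The medians of anti-PD1 in shCtrl tumours, of the hairpin under IgG2A and of both were -0.42, 0.15 and 1.34. In 10 (Col1a1, Col1a2, Col3a1, Col5a1, Col5a2, Col6a1, Col6a3, Loxl1, Postn and Thy1) the interval lay above 0, beside 2.35% of all genes. Col1a1, a chain of type I collagen, read 1342, 714, 494 and 1198 in shCtrl+IgG2A, 517, 270.2, 1155 and 448 in shCtrl+PD1, 638, 1047, 691 and 1415 in shMDK+IgG2A and 6675, 1723, 786 and 2929 in shMDK+PD1. Of the last 4, 3 were the highest of all 16, but 1 tumour reached 6675 while another lay within the range of the other groups, and the combined change of 1.39 ± 0.53 did not pass (adjusted p = 0.118). Its interaction of 2.08 ± 0.76 came with a lower mean in shCtrl+PD1 (-0.74 ± 0.53) as well as a higher one in shMDK+PD1, neither of which passed.

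Col3a1, of type III collagen, read 3796, 674, 233 and 951 in shMDK+PD1 and means of 253 ± 49.7, 203 ± 193 and 238 ± 76.8 elsewhere (interaction 2.86 ± 1.05). Col6a3, a chain of type VI collagen, was tighter: 685, 408, 355 and 840.5 with both treatments were the 4 highest values, the next being 242, and it rose with both (2.13 ± 0.44, adjusted p = 0.00437; interaction 1.76 ± 0.62). The number of matrix genes with an interval above 0 was 8 to 14 with any 1 tumour left out, 5 without the 5 GC-rich libraries and 3 without the 2 Gm42418-rich ones, with medians of 1.29 and 1.26. For Postn, a matrix protein, the interval excluded 0 in 8 of those 16 fits.

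Genes of blood endothelium had a median interaction of 0.68, with an interval above 0 for Emcn, Plvap, Tie1 and Vwf, or 4 of 14, beside 2.35% of all genes. Tie1, an endothelial receptor kinase, read 20.3, 18.1, 12.4 and 20.3 in shCtrl+IgG2A, 21.2, 15, 22.3 and 10.8 in shCtrl+PD1, 17.8, 16.4, 19 and 30.5 in shMDK+IgG2A and 79.7, 44.1, 49.2 and 38.1 in shMDK+PD1. The last group did not overlap the others, and Tie1 rose with both (1.49 ± 0.32, adjusted p = 0.00607; interaction 1.34 ± 0.45). Pecam1, the CD31 antigen, had an interaction of 0.86 ± 0.49 with an interval of -0.18 to 1.90. Leaving out 1 tumour gave 1 to 6 such genes, the lowest without shMDK+IgG2A tumour 3 or shMDK+PD1 tumour 1, and 2 without shCtrl+IgG2A tumour 4, shCtrl+PD1 tumour 1, 3 or 4, shMDK+IgG2A tumour 2 or shMDK+PD1 tumour 4. Outside this list, 2 transcription factors known in endothelium were among the 10 genes with the smallest interaction p above 0. They were picked by that ranking, so they are no support for the endothelial list, and which cells held their RNA was not tested. Epas1, the hypoxia-inducible factor HIF-2α, had an interaction of 1.15 ± 0.30 and Klf2, which responds to blood flow, 1.83 ± 0.47. Klf2 went from 47.5 ± 11.5, 39.9 ± 12.9 and 58.8 ± 18.8 to 188 ± 97.4 and rose with both (1.85 ± 0.33, adjusted p = 0.0017).

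T cell and cytotoxic genes rose with both treatments and had median interactions near 2-fold, with wide intervals. The cytotoxic list had a median interaction of 1.09 over 11 tested members and the T cell list 1.0 over 16. The hairpin under IgG2A raised 5 cytotoxic genes and both treatments all 11, and for T cell genes these were 1 and 9. Over all genes these rises passed for 1.63% and 6.39%. Intervals lay above 0 for Ccl5 among cytotoxic genes and for Cd247 and Thy1 among T cell genes, and every other interval was unresolved. Ccl5 is also counted among the chemokines above, and Thy1 among the matrix genes. Cd247, Cd3e, Cd8a, Lat and Trbc1 were tested only through their level with both treatments, and the 11 other T cell genes had a median of 0.99 with 1 interval above 0 (Thy1). The same held for Cst7 of the cytotoxic list, whose 10 other members had a median of 1.10. Gzmc, a granzyme, read 6.75, 1.07, 0.951 and 0.923 in shCtrl+IgG2A, 0.920, 0, 2.79 and 7.19 in shCtrl+PD1, 40.1, 39.1, 47.4 and 134 in shMDK+IgG2A and 281, 109.7, 183 and 103 in shMDK+PD1. The shMDK tumours were all above the shCtrl tumours, the shMDK groups overlapped through 1 tumour, and the interaction was 1.45 ± 0.89 (interval -0.41 to 3.32). Reads of Gzmc can be shared with its near-identical neighbours.

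Prf1, the pore-forming perforin, read 11.3, 0, 0 and 0 in shCtrl+IgG2A, 1.84, 0, 2.79 and 0.899 in shCtrl+PD1, 15.6, 15.5, 22.8 and 14.7 in shMDK+IgG2A and 64.1, 41.1, 49.2 and 24.5 in shMDK+PD1. The shMDK groups did not overlap, and the first shCtrl+IgG2A tumour stood apart from its group, as it did for the cytotoxic score as a whole. Its interaction was 1.09 ± 0.98. Cd3e and Cd8a, subunits of the T cell receptor complex and of its co-receptor, had interactions of 1.52 ± 0.90 and -0.20 ± 1.10, and Cd8a read 15.6, 4.55, 16.1 and 2.10 in shMDK+IgG2A and 20.4, 17.6, 1.69 and 8.46 in shMDK+PD1, and these overlapped. Without the first shCtrl+IgG2A tumour the cytotoxic median was 0.19 and the T cell median 0.50. The T cell median was 0.17 without the 5 GC-rich libraries, 0.61 without both Gm42418-rich ones and 0.64 without shCtrl+PD1 tumour 2. The cytotoxic median was 0.56 and 0.57 without the first and the second set of libraries, and no cytotoxic gene had an interval above 0 in either fit. Pdcd1, the antibody's target, had a mean below the minimum of 5 and was not tested, and of 8 natural killer genes 1 was tested.

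**Figure D3:**
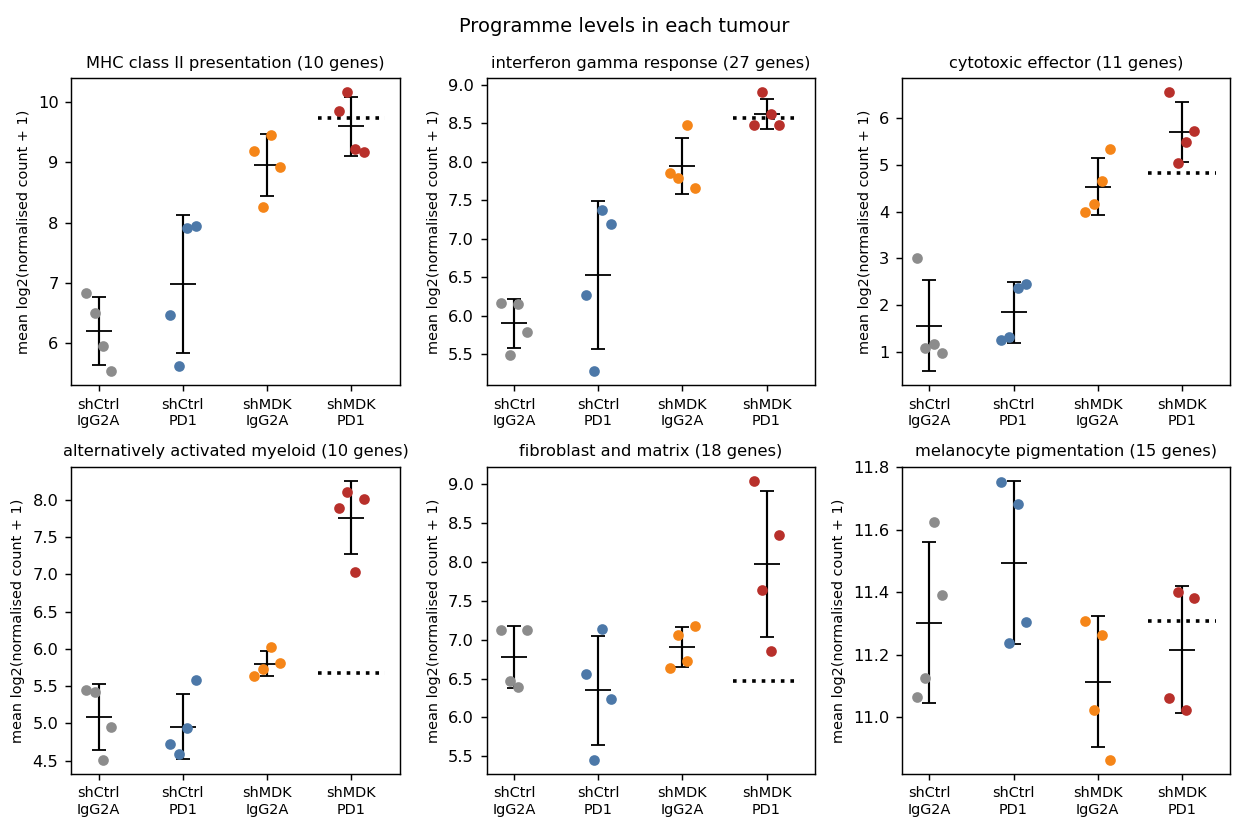
Mean log2(normalised count + 1) over the tested members of 6 lists in each tumour (points), with group mean ± SD (bars) and, over shMDK+PD1, the sum of the single effects (dotted line). The alternatively activated myeloid score lies above that line in all 4 tumours with both treatments, while the interferon gamma score averages 8.62 with a gap of 0.048 from it.

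The interferon gamma response rose with both treatments, and its median change lay near the sum of the single effects. Of 27 tested members the hairpin under IgG2A raised 17 and both treatments 24, beside 1.63% and 6.39% of all genes, with medians of 1.78 and 2.65. Anti-PD1 in shCtrl tumours had a median of 0.52 with no call. The median interaction was 0.071, with 15 members above 0 and 12 below, where 50.6% of all genes lay above 0. The list score, its mean log2 level, was 6.16, 5.50, 6.15 and 5.80 in shCtrl+IgG2A, 6.28, 5.28, 7.38 and 7.19 in shCtrl+PD1, 7.85, 7.78, 8.47 and 7.66 in shMDK+IgG2A and 8.48, 8.90, 8.62 and 8.48 in shMDK+PD1. Tumours 3 and 4 of shCtrl+PD1 lay above all shCtrl+IgG2A tumours and tumour 2 below them. The score's interaction was 0.048 ± 0.55.

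Many members of this list share letters before their start sites. The pattern TTCNNNGAA, known as the core of gamma-activated sites, was searched on both strands in the 250 bases before the transcription start. It occurred in 10 of 20 list members with a promoter in the RefSeq-derived table (GRCm38.p6), in 1 of 6 alternatively activated myeloid genes, in 0 of 10 matrix genes and in 8.13% of 27025 genes with a promoter. Shown are 2 interferon gamma genes with an interaction near or below 0 (Irf1 at chr11:53769764-53770013, plus strand, and Psmb8 at chr17:34197945-34198194, plus strand) and the 1 alternatively activated gene with a match (Chil3 at chr3:106167565-106167814, minus strand). Each runs 5′ to 3′ up to the start site, and capitals mark the match to TTCNNNGAA. Irf1 has 2 promoters in that source, and the one printed was picked by its number of matches. A gene counted as a match if any of its promoters held the pattern.
Irf1: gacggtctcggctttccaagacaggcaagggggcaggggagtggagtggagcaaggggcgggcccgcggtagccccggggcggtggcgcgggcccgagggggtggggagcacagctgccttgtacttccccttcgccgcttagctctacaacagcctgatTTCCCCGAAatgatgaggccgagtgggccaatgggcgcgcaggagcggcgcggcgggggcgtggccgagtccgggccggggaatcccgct
Psmb8: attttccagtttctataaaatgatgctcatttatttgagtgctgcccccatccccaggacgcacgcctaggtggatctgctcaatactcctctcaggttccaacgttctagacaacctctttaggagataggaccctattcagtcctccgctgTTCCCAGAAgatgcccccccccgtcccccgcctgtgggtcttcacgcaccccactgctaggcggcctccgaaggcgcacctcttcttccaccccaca
Chil3: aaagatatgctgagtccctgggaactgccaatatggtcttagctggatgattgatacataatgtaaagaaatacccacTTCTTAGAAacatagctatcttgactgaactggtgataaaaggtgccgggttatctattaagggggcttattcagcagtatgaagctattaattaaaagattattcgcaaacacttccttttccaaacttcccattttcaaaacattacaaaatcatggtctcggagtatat
A match is a description of the letters and shows no binding.

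Irf1, the transcription factor of the first sequence, read 249.9, 209.9, 272 and 227 in shCtrl+IgG2A, 254, 201, 587 and 568 in shCtrl+PD1, 971, 815, 1602 and 632 in shMDK+IgG2A and 1469, 1936, 1487 and 1207 in shMDK+PD1. The shCtrl+PD1 group split into 2 low and 2 high tumours, and all shMDK tumours were above all shCtrl tumours. The single effects sum to 2.58 and the observed change was 2.65 ± 0.32 (adjusted p = 6.39e-05), an interaction of 0.071 ± 0.45. Psmb8, an immunoproteasome subunit, read 208, 149, 314 and 162 in shCtrl+IgG2A, 352, 255, 721 and 635 in shCtrl+PD1, 1369, 1012, 725 and 424 in shMDK+IgG2A and 681, 1058, 898 and 1264 in shMDK+PD1. Its shMDK groups overlapped, it rose with the hairpin under IgG2A (2.01 ± 0.36, adjusted p = 0.00624) and with both (2.25 ± 0.36, adjusted p = 0.000644), and its interaction was -0.94 ± 0.51 (interval -2.01 to 0.14).

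Tap1, Gbp4 and Iigp1 fill in the range. For the peptide transporter Tap1 the interaction was -0.12 ± 0.40, within 2-fold (-0.97 to 0.73). Of the large GTPases that act against intracellular pathogens, Gbp4 rose 61.8-fold with both (5.95 ± 0.70, adjusted p = 5.48e-05) from 11.3, 6.39, 6.66 and 2.77 to 447, 470.0, 418 and 430.0, with no overlap. Its interaction was -0.63 ± 0.99 and that of Iigp1 -0.25 ± 0.77. Reads of these families can be shared between near-identical members. In all, 4 of 27 members had an interval within 2-fold, beside 46.9% of all genes, and 22 were unresolved, beside 49.6%. A median near 0 over mostly unresolved members does not show that their effects add. Serping1, the C1 inhibitor of complement, was the 1 member with an interval above 0 (1.34 ± 0.56, excluding 0 in 10 of the 16 fits that left out 1 tumour). The list median shifted with single tumours, from -0.43 to 0.28, the lowest without shCtrl+PD1 tumour 2, where no member had an interval above 0 and 3 had one below. Without both Gm42418-rich libraries it was -0.49 and without the GC-rich ones 0.22. In edgeR and DESeq2 the median lay below 0, at -0.17 and -0.15.

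Type I interferon genes, which answer to interferon alpha and beta, had smaller single effects. Both treatments raised 16 of 32 and the hairpin under IgG2A 7, beside 6.39% and 1.63% of all genes. The median interaction was 0.26, with no interval on either side of 0 and 12 within 2-fold, beside 46.9% of all genes. The median turned to -0.069, with 13 of 32 above 0, without both Gm42418-rich libraries. It was 0.05 without shCtrl+PD1 tumour 2 and 0.37, with 3 intervals above 0, without shCtrl+PD1 tumour 3. Oas3, which senses double-stranded RNA, rose with the hairpin under IgG2A (2.55 ± 0.39, adjusted p = 0.00264) and with both (3.51 ± 0.39, adjusted p = 3.26e-05), with an interaction of 0.013 ± 0.55. Isg15, a ubiquitin-like modifier, did not pass in any comparison (interaction -0.066 ± 0.73), nor did Ifit1 (0.65 ± 0.65, or -0.19 without both Gm42418-rich libraries).

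Antigen presentation by MHC class II had the highest median hairpin effect among the lists named here and a median interaction below 0. Under IgG2A the hairpin raised 9 of 10 members with a median of 3.30, both treatments raised 9 with a median of 3.91, and the median interaction was -0.23. Over all genes these rises passed for 1.63% and 6.39%. Cd74, the invariant chain that escorts class II molecules, read 388, 133, 81.8 and 59.1 in shCtrl+IgG2A, 110.4, 51, 538 and 776 in shCtrl+PD1, 2032, 957, 2636 and 2619.7 in shMDK+IgG2A and 3649, 3237, 2114 and 1895 in shMDK+PD1. All shMDK tumours were above all shCtrl tumours and the shMDK groups overlapped. Its sum of single effects was 4.72, its change with both 4.37 ± 0.70 (adjusted p = 0.000619) and its interaction -0.35 ± 0.99 (interval -2.44 to 1.73). All 10 members were unresolved, with a median half-width of 1.52, so a 2-fold departure in either direction was not detectable with these tumours. The list median changed sign with single tumours left out, from -0.59 to 0.25, and was -0.42 without the GC-rich and -0.52 without the Gm42418-rich libraries.

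MHC class I genes were measured more tightly. Of 20 members 9 had an interval within 2-fold, beside 46.9% of all genes, and none lay wholly on one side of 0 (median -0.022). Both treatments raised 13, beside 6.39%. B2m, the light chain of class I molecules, had an interaction of 0.10 ± 0.32 (-0.57 to 0.78). H2-K1, a heavy chain, read 2215, 2135, 2746 and 2515 in shCtrl+IgG2A, 3711, 1379.6, 4299 and 4158 in shCtrl+PD1, 4598, 5329, 6506 and 4209 in shMDK+IgG2A and 9830.3, 8618, 7326 and 8921 in shMDK+PD1. Here the shMDK groups did not overlap, and the second shCtrl+PD1 tumour was the lowest of all. The gene rose with both (1.85 ± 0.27, adjusted p = 0.000308), with an interaction of 0.39 ± 0.38. The list median was 0.20 without the GC-rich and -0.16 without the Gm42418-rich libraries. Without the latter these interactions were -0.28 for B2m and -0.047 for H2-K1.

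Signal-dependent genes were mixed. NF-kB targets had a median interaction of 0.48 with an interval above 0 in 3 of 18, beside 2.35% of all genes. Without the GC-rich libraries the median was 0.30. Nfkbia, the inhibitor that NF-kB itself induces, read 478, 591, 637 and 665 in shCtrl+IgG2A, 529, 655, 511 and 460.1 in shCtrl+PD1, 725, 617, 657 and 664 in shMDK+IgG2A and 1161, 807, 869 and 1325 in shMDK+PD1. The 4 tumours with both treatments were the highest, and the gene rose with both (0.79 ± 0.16, adjusted p = 0.00472) against a sum of 0.037 (interaction 0.75 ± 0.23). The other 2 were Cd40, a receptor of antigen-presenting cells (2.09 ± 0.76), and the adaptor Traf1 (1.18 ± 0.48), while Tnfaip3, which damps the pathway, lay at -0.61 ± 0.95. Zfp36, whose product destabilises cytokine mRNAs, was the 1 of 16 immediate early and heat shock genes with an interval above 0 (1.41 ± 0.42; list median 0.70). Among 6 tested checkpoint genes all were above 0, beside 50.6% of all genes. Pdcd1lg2, the second ligand of PD1, was the 1 with an interval above 0 (1.99 ± 0.94, with 32.1, 69.5, 14.4 and 33.9 in shMDK+PD1 against at most 11.4 elsewhere). Its interval kept clear of 0 in 5 of the 16 fits that left out 1 tumour, and it was tested only through that group. The checkpoint median was 0.68, or 0.62 over the 5 other members. It was 0.42 without the GC-rich libraries, 0.29 with 5 of 6 above 0 without the Gm42418-rich ones, and 0.42 with 5 of 6 without shCtrl+PD1 tumour 2. Cd274, the first ligand, had an interaction of 0.75 ± 0.64 and did not pass in the combined comparison (adjusted p = 0.258).

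In limma fewer genes had an interval below the sum (161) than above it (345). The counts were close in edgeR, with 324 below and 330 above at an unadjusted p under 0.05. They were also close in DESeq2, with 364 and 380 by interval. Ighg2c, the constant region of an IgG heavy chain made by plasma cells (chr12:113285325-113288932, minus strand), had the lowest interaction of all genes tested. It read 1.13, 2.13, 1.90 and 0 in shCtrl+IgG2A, 3.68, 1.5, 2.79 and 1.80 in shCtrl+PD1, 52.3, 22.7, 68.3 and 95.7 in shMDK+IgG2A and 2.91, 17.6, 4.24 and 7.62 in shMDK+PD1. Every shMDK+IgG2A tumour was above every other tumour, and the tumours with both treatments overlapped shCtrl+PD1. The hairpin under IgG2A raised it 25.7-fold (4.69 ± 0.56, adjusted p = 0.00056), both treatments raised it 3.61-fold (adjusted p = 0.0451), and the interaction was -3.50 ± 0.79 (interval -5.18 to -1.83). The other immunoglobulin genes did not follow it, Ighm having 1.76 ± 1.30, Jchain 1.67 ± 1.39 and Igkc 0.47 ± 1.46, all with intervals that held 0. The B and plasma cell median over 8 members was 0.12, and its sign was not stable. It was -0.12 over the 7 members without Jchain, which was tested only through its level with both treatments, -0.29 without the GC-rich libraries and -0.30 without the Gm42418-rich ones. With 1 tumour left out it ran from -0.29 to 0.31, the lowest without shCtrl+PD1 tumour 2, and it was -0.40 in edgeR and -0.34 in DESeq2. Immunoglobulin genes can share reads.

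Among abundant genes below the sum were Fdps, an enzyme of the mevalonate pathway, and Pold2, a subunit of DNA polymerase delta. Fdps read 1069, 926, 710.4 and 734 in shCtrl+IgG2A, 870.0, 737, 853 and 719 in shCtrl+PD1, 727, 895, 739 and 657 in shMDK+IgG2A and 300.2, 513, 455 and 322 in shMDK+PD1. The 4 tumours with both treatments were the lowest of all 16, the gene fell with both (-1.13 ± 0.18, adjusted p = 0.000608), and the interaction was -0.85 ± 0.25. Pold2 likewise read 189, 223, 297 and 267 with both treatments, below all others, and fell (-0.63 ± 0.16, adjusted p = 0.0157; interaction -0.69 ± 0.22). Dis3, a nuclease of the RNA exosome, had an interaction of -0.64 ± 0.20 with values of 334, 281, 400.0 and 355 in shMDK+PD1, again the 4 lowest. Mief1, a mitochondrial fission factor, had -0.59 ± 0.19.

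A further shape appeared in 2 genes with small interaction p-values, in which the mean of each single treatment lay below that of the control and below that of both together. Stra6l, a membrane transporter related to the retinol receptor, read 7.88, 10.7, 14.3 and 15.7 in shCtrl+IgG2A, 4.60, 3.00, 6.51 and 7.19 in shCtrl+PD1, 5.56, 4.55, 4.74 and 6.31 in shMDK+IgG2A and 17.5, 18.6, 10.2 and 12.7 in shMDK+PD1. Both single-treatment groups lay below both other groups with no overlap, and the interaction of 2.36 ± 0.52 had the smallest p of all genes. Calr4, of the calreticulin family, went from 10.2 ± 1.93 to 2.36 ± 1.25 and 3.44 ± 2.37 and back to 8.47 ± 3.63 (interaction 3.00 ± 0.68). Neither single effect passed in either gene. The zinc exporter gene Slc30a1, also among the genes with the smallest interaction p, had 1.23 ± 0.32 with means of 142, 88.3, 160.5 and 237.

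Programmes of pigmentation, growth and energy use held the highest shares of genes close to additive. The interval stayed within 2-fold for 12 of 15 pigmentation genes, 20 of 28 cell cycle genes, 16 of 18 genes of Myc and ribosome biogenesis, 23 of 26 ribosomal protein genes and 19 of 24 genes of oxidative phosphorylation, beside 46.9% of all genes. No gene of these 5 lists had an interval that excluded 0. Without the 5 GC-rich libraries some did: 3 cell cycle genes above 0, 2 genes of oxidative phosphorylation above and 1 below, 2 of Myc and ribosome biogenesis below and 8 ribosomal protein genes below. Over all 14689 genes tested without those libraries, 831 lay above 0 and 552 below. In that fit the cell cycle median turned from -0.12 to 0.14, and the ribosomal protein median went from -0.17 to -0.29. They were also measured more tightly than most, with median standard errors of 0.207 to 0.295, and this class can hold only genes with narrow intervals. Pigmentation genes had a median interaction of -0.05, or 0.047 without those libraries. Dct, a melanin synthesis enzyme, had 0.086 ± 0.29 (-0.53 to 0.70), and Tyr, the rate-limiting one, 0.032 ± 0.45 with values of 1004, 908, 2366 and 1941 in shCtrl+IgG2A and 810.2, 1926, 1063 and 1694 in shMDK+PD1 that overlapped. Mki67, the proliferation antigen, had 0.0083 ± 0.28 (-0.58 to 0.60). Genes of Myc and ribosome biogenesis had a median of -0.18 with 17 of 18 below 0 (-0.31 without the GC-rich and -0.36, with 2 intervals below 0, without the Gm42418-rich libraries), and both treatments lowered 4 of them, 6 of 26 ribosomal protein genes and 4 of 28 cell cycle genes, beside 3.47% of all genes. Myc itself had an interaction of -0.24 ± 0.58 and fell with both (-1.37 ± 0.41, adjusted p = 0.0424). Without the 5 GC-rich libraries the interactions were 0.57 for Myc and 0.84 for Tyr.

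**Figure D4:**
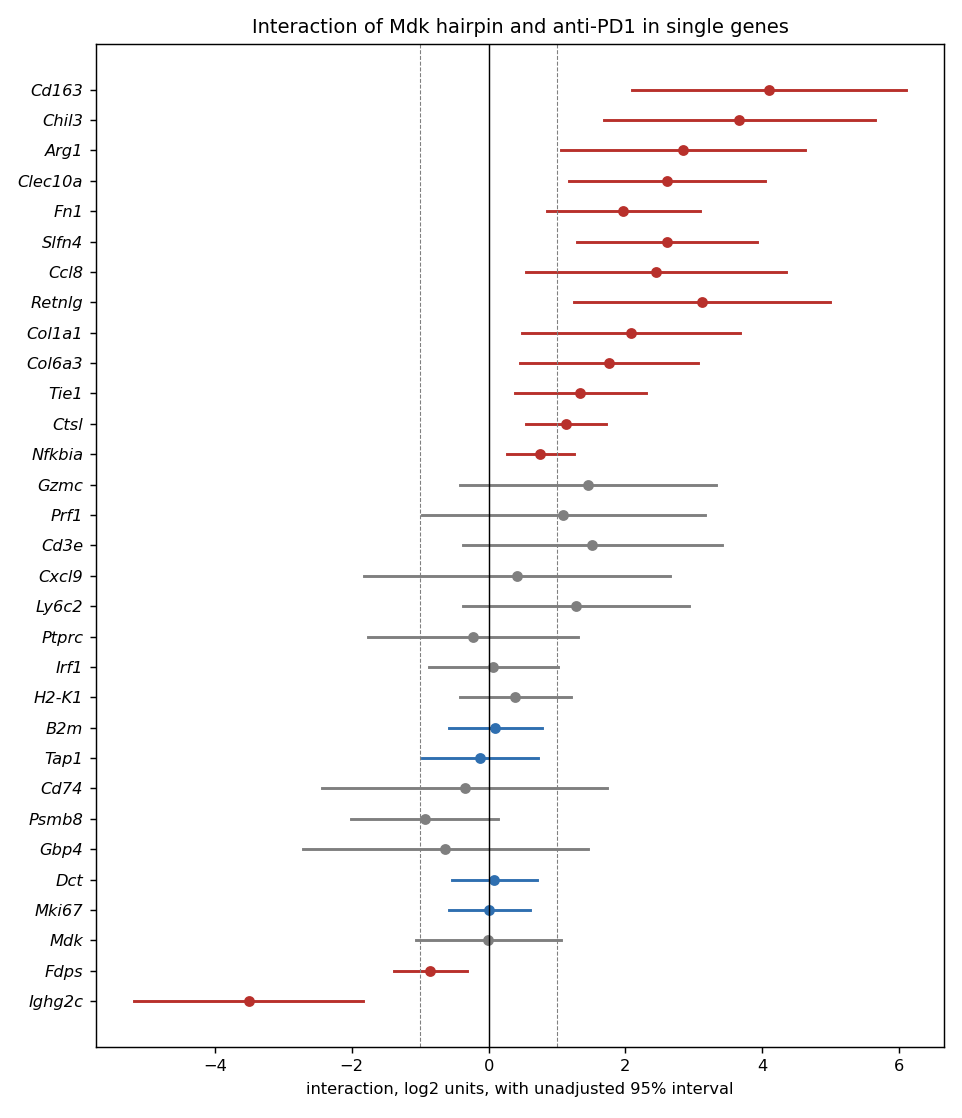
Interaction of named genes (points) with unadjusted 95% intervals (lines) on the log2 axis, with dashed lines at 2-fold in either direction. Red marks an interval that excludes 0, blue one within 2-fold and grey the unresolved. Ighg2c has the lowest value at -3.50, and Dct and Mki67 lie within the dashed lines.

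Among partners of midkine at the cell surface, 7 of 14 tested genes were within 2-fold, beside 46.9% of all genes, and the list had a median interaction of 0.22. Sdc4, a heparan sulphate syndecan, was the 1 with an interval above 0. It read 123, 156, 287 and 287 in shCtrl+IgG2A, 240.0, 257, 189 and 203 in shCtrl+PD1, 191, 176, 209 and 166 in shMDK+IgG2A and 348, 397, 342 and 459 in shMDK+PD1. The last 4 were the highest, and the gene rose with both (0.94 ± 0.23, adjusted p = 0.0148; interaction 0.90 ± 0.33). For the other receptors Lrp1, Notch2, Itga6 and Itgb1 the interactions were 0.53, 0.60, 0.27 and 0.29. Of the 14 genes 4 lay below 0: Cspg5, a chondroitin sulphate proteoglycan (-1.40 ± 0.72), nucleolin, Ncl (-0.16 ± 0.29), the receptor phosphatase Ptprb (-0.031 ± 0.41) and Mdk itself. Genes of the dedifferentiated melanoma state had a median of 0.44 (0.89 without the GC-rich and 0.92 without the Gm42418-rich libraries), and its member Tnc, a matrix protein, lay above 0 (2.40 ± 0.78). Axl, a receptor kinase of that state, rose with the hairpin under IgG2A (1.51 ± 0.30, adjusted p = 0.0106) and with both (2.03 ± 0.30, adjusted p = 0.000289), with an interaction of 0.39 ± 0.42. Hypoxia and glycolysis genes had a median of 0.17 (11 of 20 within 2-fold), stress response genes 0.22 (8 of 17) and TGF-beta signalling genes 0.15 (6 of 16). Over all genes 46.9% were within 2-fold. The TGF-beta median was -0.0031 without Smad6 and Tgfbr3, which were tested only through their level with both treatments, and 0.32 without the GC-rich libraries. In fits without those or without the Gm42418-rich libraries the stress median was 0.34, with 3 intervals above 0, and 0.10. Dendritic cell genes had 0.49 over 7 members, all unresolved.

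Few markers of host tissue that an excised tumour could hold passed the minimum level. Of 14 skeletal muscle genes 4 were tested, of 12 keratinocyte genes 2, of 10 adipocyte genes 3 and of 8 erythroid genes 7, none with an interval that excluded 0. As mean log2 levels, muscle genes ran from 3.83 to 6.85 over the 16 tumours and keratinocyte genes from 2.65 to 6.01, both highest in shMDK+PD1 tumour 2. Without that tumour 9 matrix genes and 7 alternatively activated genes had an interval above 0. Erythroid genes ran from 6.05 to 13.42, highest in shCtrl+PD1 tumour 2, the library also rich in Gm42418. Their part in the results above was not tested.

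Whether effects add depends on the scale, and for some programmes the linear scale gave another answer. There the expected mean is the control mean plus the 2 single differences in normalised counts. Cd74 would then be 2264 with both treatments, and it was 2724, higher by 459 ± 611 (SE), where the log2 interaction was below 0. For Gbp4 the excess was 188 ± 68.1 over 253, and for Irf1 357 ± 279 over 1168. Of 10 MHC class II genes 9 were above the linear sum and 3 above the log2 sum, and of 27 interferon gamma genes 23 and 15. Over all genes tested 52.2% were above the linear sum and 50.6% above the log2 sum. The programmes furthest from the log2 sum were on the same side on both scales. All 10 alternatively activated genes, all 18 matrix genes and all 17 chemokines were above the linear sum as well, Arg1 by 593 ± 100.4 over 138. Where both single effects go the same way, the log2 sum is itself at or above the linear sum. An excess over the first then largely entails an excess over the second, so the shared side is no further support. For Ighg2c the observed minus the expected mean was -52.8 ± 15.6, from an expected 60.9.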

How the data were processed

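Total RNA of 16 tumours (500 ng each) went into QuantSeq 3′ libraries, per the labels' protocols. TopHat2 2.0.10 with Bowtie 1.0.0, HTSeq, DESeq2, SAMtools 0.1.19 and FastQC 0.11.0 are named in the submitters' processing notes, with the build GRCm38 (mm10). The authors deposited 1 table of normalised counts per gene, a signal equal to reads divided by a size factor. Dividing by each column's step gave whole reads for 100% of values (tolerance 0.001), so depth was known, and edgeR 4.0.16 and DESeq2 1.42.0 were run on those reads as alternatives. The table had 16094 genes, all 16 columns were used and the number of unused columns was 0. Genes with a mean of at least 5 (14672) were fitted as 4 group means with limma 3.58.1 in R 4.3.3 on log2(normalised count + 1), with 12 residual degrees of freedom and Benjamini-Hochberg adjustment over all genes of a contrast. Errors after ± are standard errors unless marked as SD.

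An interval was called within 2-fold if it held 0 and stayed between -1 and 1. Linear-scale errors come from the 4 group SDs. Named genes are the 10 with the smallest interaction p in each direction (gene models without a name left out) and a set of fixed markers. From each list come the members with the highest and lowest interaction relative to its standard error. Further genes were named after their values were seen. The members and lists were chosen with earlier results of these data known. A run of the limma fit on simulated counts checked the code only. Its genes were drawn independently, without the differences of the GC-rich or Gm42418-rich libraries, so it cannot show that the intervals hold here. Replicate numbers follow accession order and pair nothing, and p-values measure the spread between tumours of a group. Size factors computed from the recovered reads matched the deposited scaling. Genes with near-identical copies (H2-Q, granzymes, Gbp and Tgtp families, immunoglobulins) can share reads, so their values are uncertain. Some genes of the lists are not reported here by name. Gene positions are from GENCODE M21 (GRCm38), and promoters from RefSeq (GRCm38.p6).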

Additional observations from a re-analysis of the deposited data

Results flagged for a closer look

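Single tumours stood far from the other 3 of their group in 21 of 412 sets of 4 values examined, and chance alone gives about 1 in 20. The values are log2(normalised count + 1), or the mean of that over a list.

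Genes of cytotoxic cells stood out in the first shCtrl+IgG2A tumour. It was the highest of its group for Prf1 (3.62, the others at 0), Gzmc (2.95), Nkg7, a cytotoxic granule gene (2.95), and the cytotoxic score (3.02, the next at 1.18). Among shMDK+IgG2A tumours, tumour 3 was the highest for Prf1 (4.57) and tumour 4 for Gzmc (7.07). Cd3e was at 1.92 in shCtrl+PD1 tumour 3 and at 0 in the rest of that group.

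The second shCtrl+PD1 tumour, rich in Gm42418, was the lowest of its group for H2-K1 (10.43, the next at 11.86), Axl (7.74) and Pdcd1lg2 (1.32), and the highest for the midkine partner score (7.98). Within shMDK+PD1, tumour 3 was the lowest for Cd163 (2.13, the next at 4.06) and Postn (5.32), and tumour 4 the highest for Slfn4 (6.25). Within shCtrl+IgG2A, tumour 3 was the lowest for S100a8 (3.11), tumour 1 the lowest for Pold2 (8.24) and tumour 4 the highest for Timp1, an inhibitor of matrix proteases (7.96). Klf2 was the highest of its group in shMDK+IgG2A tumour 1 (6.46).

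The score of hypoxia and glycolysis genes was the lowest of its group in shCtrl+IgG2A tumour 2 (10.28) and the highest of its group in shMDK+IgG2A tumour 4 (10.63), where the score of oxidative phosphorylation was the lowest of its group (10.87). These 2 libraries are among those with GC-rich 3′ ends reading higher, and the part of that in the scores was not tested.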

How the results depend on the processing

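The interaction passed for 0 genes in every alternative run, including each of the 16 fits without 1 tumour. The 70 genes followed through all alternatives gave 1801 comparisons. The sign changed in none of those of the 36 genes whose interval excluded 0, and in 99 of those of the other 34. The 36 were set by that interval and the alternatives reuse the same tumours. A kept sign was therefore likely from the start and is no support for an interaction. No paired analysis was possible because replicate numbers follow accession order and pair no tumours. List medians over members whose mean reached 5 in the 12 tumours without both treatments, a restriction chosen after seeing the data, are given beside the lists or where the minimum mean is described. Each gene's interval reaches a median of 0.79 to either side, so a departure from additivity under 2-fold was often not detectable.

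Anti-PD1 in shMDK tumours, at 5 genes, passed for 3 with a pseudocount of 0.5, 27 with a pseudocount of 5, 3 with no filter, 3 with TMM scaling, 0 with no variance trend, 8 in edgeR, 248 in DESeq2, 1 without the 5 GC-rich libraries and 11 without the 2 Gm42418-rich ones. With 1 tumour left out it ranged from 0 to 36. Anti-PD1 in shCtrl tumours passed for 7 genes in DESeq2, 3 without the 2 Gm42418-rich libraries and 0 to 2 with 1 tumour left out, the 2 being without shCtrl+PD1 tumour 2. The hairpin under IgG2A, at 255, passed for 449 in DESeq2, 74 without the 5 GC-rich libraries and 136 to 363 with 1 tumour left out, moving by over 1.5 times without shCtrl+IgG2A tumour 3 or 4 or shMDK+IgG2A tumour 1 or 3. The hairpin under anti-PD1, at 870, passed for 1310 in DESeq2 and for 443 to 912 with 1 tumour left out, the lowest counts being without shMDK+PD1 tumour 1 (443) and tumour 2 (569). Both treatments together, at 1447, passed for 564 without the 5 GC-rich libraries and 955 to 1711 with 1 tumour left out, the lowest without shCtrl+IgG2A tumour 2. Fits without several libraries hold fewer tumours, and for the other shifts the cause was not tested.

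Of the interval classes, unresolved genes numbered 4536 with a filter at a mean of 20 and 12482 with limits of 1.5-fold, at which 1684 genes were within the limits. For edgeR, which gives no interval, the genes with an unadjusted p under 0.05 numbered 324 below 0 and 330 above. In DESeq2 the interval lay below 0 in 364 genes and above 0 in 380, against 161 and 345 in limma. Without the 5 GC-rich libraries 831 genes lay above 0 and 552 below. With 1 tumour left out 231 to 447 lay above 0 and 123 to 231 below.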

Other observations

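Several gene groups came to notice among genes with an interval that excluded 0, and lists for them were then written after the values had been seen, so their counts are descriptions. Sterol synthesis genes, which make cholesterol from acetyl-CoA, had an interaction below 0 in 20 of 21, with a median of -0.50 that stayed between -0.65 and -0.37 with any 1 tumour left out. Both treatments lowered 9 of the 21, beside 3.47% of all genes, while anti-PD1 in shCtrl tumours and the hairpin under IgG2A each passed for 0. The interval lay below 0 for Fdps and for the sterol carrier gene Stard4, beside 1.1% of all genes. Genes of matrix crosslinking and remodelling had a median of 0.77 over 18 members, all above 0. The interval lay above 0 for Ctsl, Timp1, the lysyl oxidases Lox and Loxl3 and the collagen hydroxylase subunit P4ha2, beside 2.35% of all genes. Both treatments raised 8 of the 18, beside 6.39%.

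Pericyte and smooth muscle genes had a median of 0.67 over 12 members, with an interval above 0 for Ndufa4l2, beside 2.35% of all genes. DNA replication and repair genes had a median of -0.13 over 25 members (-0.35 without both Gm42418-rich libraries). Of these 16 were within 2-fold, beside 46.9% of all genes. Faap24, Pold2 and Wdr76 had an interval below 0, beside 1.1%.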
